A study of Mus musculus with 10 samples.

Results

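Cytochrome P450 genes were followed through an ATAC-seq series on mouse embryonic fibroblasts (MEFs) that received reprogramming factors from retroviral vectors. The members were all rows of the deposited gene table whose symbol starts with Cyp and a digit, 100 of 21965 genes, and each symbol matched the RefSeq annotation of GRCm38.p6. One of them, Cyp2j7, is annotated as a pseudogene. ATAC-seq reads open chromatin through a transposase that inserts adapters into accessible DNA, so the values describe accessibility and not RNA or enzyme.

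All libraries came from MEFs labelled as strain ICR that carried a GFP transgene under the Oct4 promoter, infected with pMXs retroviruses and kept in mESC medium. A Flag control was set beside Sox2, Klf4, Oct4, the Oct4 mutant L80A (Oct4-L80A), Sox2 with Klf4 and Oct4 (SKO), and SKO with the mutant in place of Oct4 (SKO-L80A). The others were SKO with a hairpin against Brg1 (SKO+shBrg1), SKO-L80A (SKO-L80A+Vc) treated with 50 µg/ml of vitamin C and SKO-L80A with Gadd45a (SKO-L80A+Ga). Each of the 10 conditions had 1 library and 2 columns of signal, and how these relate was not given in the sources used here. There is therefore no replicate error and no significance test, and differences are described by their size and by whether the columns overlap. The library labelled Oct4 had 62.9 and 55.2 over the Sox2 gene, against 2.73 and 5.12 in Flag and 75.5 and 87.1 in the Sox2 library, so its values are given under its label only. Comparisons against Flag share the Flag library, and those against SKO or SKO-L80A share these. A gene opened in more cells cannot be told apart from one opened further in each cell.

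P450 enzymes are haem proteins of the endoplasmic reticulum or the mitochondrion that insert oxygen into small lipophilic molecules. Families CYP1 to CYP3 mostly handle drugs and other foreign compounds, most strongly in liver and gut, and CYP4 enzymes act on fatty acids. The remaining families make or break down cholesterol, bile acids, steroid hormones, vitamin D and retinoic acid. Fibroblasts are not a main site of drug metabolism, although they carry the enzyme of sterol synthesis, Cyp51, and the aryl hydrocarbon receptor target Cyp1b1.

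Sequence before the start site is shown first for 6 members. Among members with a promoter window, most of those that were open and those that stayed closed differed in their content of CG dinucleotides. Each run gives the 250 bases before the RefSeq start site on the strand of the gene, 5′ to 3′, from GRCm38.p6, with CG dinucleotides in capitals. Cyp20a1 (chr1:60343050-60343299, + strand), an orphan P450, Cyp51 (chr5:4104698-4104947, - strand), the sterol demethylase, and Cyp1b1 (chr17:79715062-79715311, - strand), which oxidises oestrogens and polycyclic hydrocarbons, were open in every condition. Cyp3a13 (chr5:137921620-137921869, - strand), a drug-metabolising enzyme, and Cyp2ab1 (chr16:20325405-20325654, - strand), a CYP2 enzyme of poorly known function, gained signal with Klf4 or SKO. Cyp3a11 (chr5:145879855-145880104, - strand), a main hepatic drug-metabolising enzyme, stayed closed. The runs hold 15, 20, 12, 1, 3 and 2 CG dinucleotides in this order. The run of Cyp3a13 lies inside the annotated gene, and the bases before its 5′ end at 137925610 are not shown.
Cyp20a1: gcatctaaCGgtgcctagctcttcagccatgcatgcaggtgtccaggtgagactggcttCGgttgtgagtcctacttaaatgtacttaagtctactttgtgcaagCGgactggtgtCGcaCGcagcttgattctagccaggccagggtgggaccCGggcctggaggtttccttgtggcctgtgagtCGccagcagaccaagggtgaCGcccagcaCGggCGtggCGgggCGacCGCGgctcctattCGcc
Cyp51: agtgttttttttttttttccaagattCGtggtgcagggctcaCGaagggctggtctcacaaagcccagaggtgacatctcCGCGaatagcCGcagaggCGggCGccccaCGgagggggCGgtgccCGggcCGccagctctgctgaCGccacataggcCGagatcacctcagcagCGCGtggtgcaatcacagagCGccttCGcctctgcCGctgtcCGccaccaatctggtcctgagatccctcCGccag
Cyp1b1: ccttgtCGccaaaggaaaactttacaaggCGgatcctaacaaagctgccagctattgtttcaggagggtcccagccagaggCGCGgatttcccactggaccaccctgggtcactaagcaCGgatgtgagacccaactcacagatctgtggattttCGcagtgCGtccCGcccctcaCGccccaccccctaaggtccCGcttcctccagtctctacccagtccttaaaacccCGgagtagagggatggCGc
Cyp3a13: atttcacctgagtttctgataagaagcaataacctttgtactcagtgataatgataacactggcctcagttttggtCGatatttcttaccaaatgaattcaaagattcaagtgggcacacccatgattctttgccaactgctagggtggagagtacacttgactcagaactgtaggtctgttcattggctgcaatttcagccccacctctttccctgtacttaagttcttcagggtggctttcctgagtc
Cyp2ab1: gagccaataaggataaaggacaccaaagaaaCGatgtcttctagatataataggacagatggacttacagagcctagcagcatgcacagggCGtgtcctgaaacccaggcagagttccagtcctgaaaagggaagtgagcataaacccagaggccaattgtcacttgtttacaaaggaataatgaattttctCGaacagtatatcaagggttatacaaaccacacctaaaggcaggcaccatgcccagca
Cyp3a11: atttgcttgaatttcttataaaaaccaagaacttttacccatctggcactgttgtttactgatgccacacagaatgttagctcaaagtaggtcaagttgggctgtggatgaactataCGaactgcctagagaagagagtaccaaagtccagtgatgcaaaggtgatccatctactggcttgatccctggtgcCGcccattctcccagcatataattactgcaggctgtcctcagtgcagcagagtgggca

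The deposited signal was taken as a density over each gene, and the level of a condition is the mean of its columns on the log2 scale with a pseudocount of 0.138. A level of 6.92, the median over every gene and column, served as the minimum signal. Most P450 genes were closed. Of the 100 members, 18 reached the minimum in at least 1 condition and 7 in all 10, against 58.6% and 40.4% of all genes. A further 31 stayed below the minimum in every condition with at least 1 column at a signal of 1 or more. The remaining 51 were below 1 in every column, against 20.4% of all genes. The median of the members' levels in Flag was 0.459, and that of all genes was 5.83.

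Of the 51 closed members, 48 lay in tandem clusters, here runs of P450 genes at most 1000000 bases apart. Of all 100 members, 76 lay in such clusters. The 3 others were Cyp7a1, the first enzyme of bile acid synthesis, Cyp21a1, a steroid hydroxylase, and Cyp2c23. All 15 Cyp2c genes, all 8 Cyp4a genes, all 4 Cyp2a genes and 8 of 9 Cyp3a genes were below 1 in every column. The cluster of 14 Cyp2c genes on chromosome 19 (39006940 to 40187286) did not exceed 0.709, the value of Cyp2c70 in its highest column. The cluster of 8 Cyp3a genes on chromosome 5 (145345149 to 146114978) did not exceed 0.763, at Cyp3a57. Members of these clusters are near copies of each other, and how reads mapping to several copies were handled was not given in the sources used here. Its part in the low values was not tested.

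**Figure D1:**
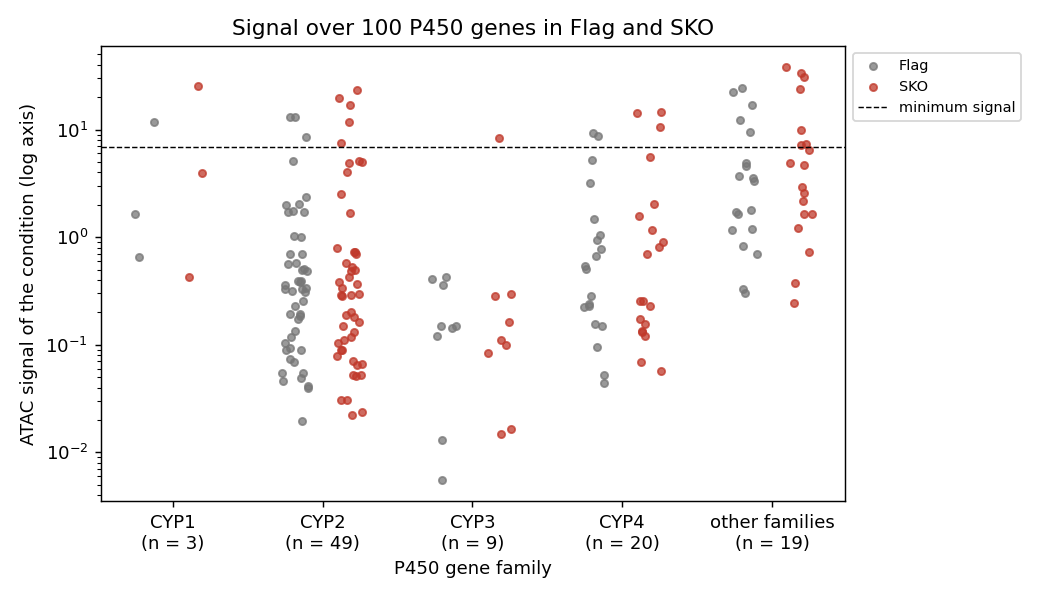
ATAC signal of the 100 P450 genes in Flag (grey) and SKO (red), 1 point per gene, by family and on a log axis. The dashed line is the minimum signal of 6.92; most CYP2, CYP3 and CYP4 genes lie below 1, and Cyp3a13 is the CYP3 point that lies above the line in SKO.

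Of the 18 members that reached the minimum, 14 lay outside such clusters, while 76 of all 100 members lay within them. The 4 within them were Cyp2j6 and Cyp2j9 on chromosome 4 and Cyp4f13 and Cyp4f17 on chromosome 17. The 5 highest in Flag were Cyp46a1 (22.6 and 26.8 in columns 1 and 2), the cholesterol 24-hydroxylase of neurons, Cyp20a1 (17.96 and 27.9), Cyp51 (12.9 and 22.5), Cyp2u1 (10.6 and 16.2), a fatty acid hydroxylase, and Cyp2r1 (9.01 and 18.8), the vitamin D 25-hydroxylase. Cyp46a1 had a higher level than Cyp20a1 in Flag, but their columns overlapped. The ranges of Cyp20a1, Cyp51 and Cyp2u1 in Flag also overlapped, although in each column Cyp20a1 was above Cyp51 and Cyp51 above Cyp2u1. The order of Cyp46a1 and Cyp20a1, and that of Cyp2u1 and Cyp2r1, changed between the columns. Cyp39a1, an oxysterol hydroxylase, and Cyp1b1 were the other members at the minimum in all 10 conditions. These 7 genes lie at separate places on chromosomes 12, 1, 5, 3, 7 and 17 and not within the clusters above. In families above CYP4, 8 of 19 members reached the minimum in at least 1 condition, against 5 of 49 in CYP2, 1 of 9 in CYP3 and 3 of 20 in CYP4.

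A promoter window of 300 bases, 250 before and 50 after a RefSeq start site of GRCm38.p6, was found for 77 members. Among them were 13 of the 18 members that reached the minimum. Cyp2u1 and Cyp39a1, open in every condition, had no window. Where a gene had several windows, the one with the most CG dinucleotides was used. The members had a median of 3 CG dinucleotides, and the 16431 genes of the table with a window had 15. Windows with 0 to 4 belonged to 58 members (75.3%) and 26.0% of all genes. In that class 3 members reached the minimum in some condition (5.17%), against 10.1% of all genes. These 3 were Cyp3a13, Cyp2ab1 and Cyp2j6, an arachidonic acid epoxygenase. With 5 to 9, 3 of 9 members reached the minimum (33.3%), against 36.9% of all genes. With 10 to 19, 3 of 5 members did (60%), against 79.0% of all genes. Of the 5 members with 20 or more, 4 reached it (80%), against 91.5% of all genes. The exception was Cyp26a1, a retinoic acid hydroxylase with 26 CG dinucleotides, which had 1.21 and 2.21 in Flag and never exceeded 3.13. The median of the members in Flag was 0.297 with 0 to 4 CG dinucleotides and 17.0 with 20 or more, and for all genes the same classes had 0.285 and 13.3.

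**Figure D2:**
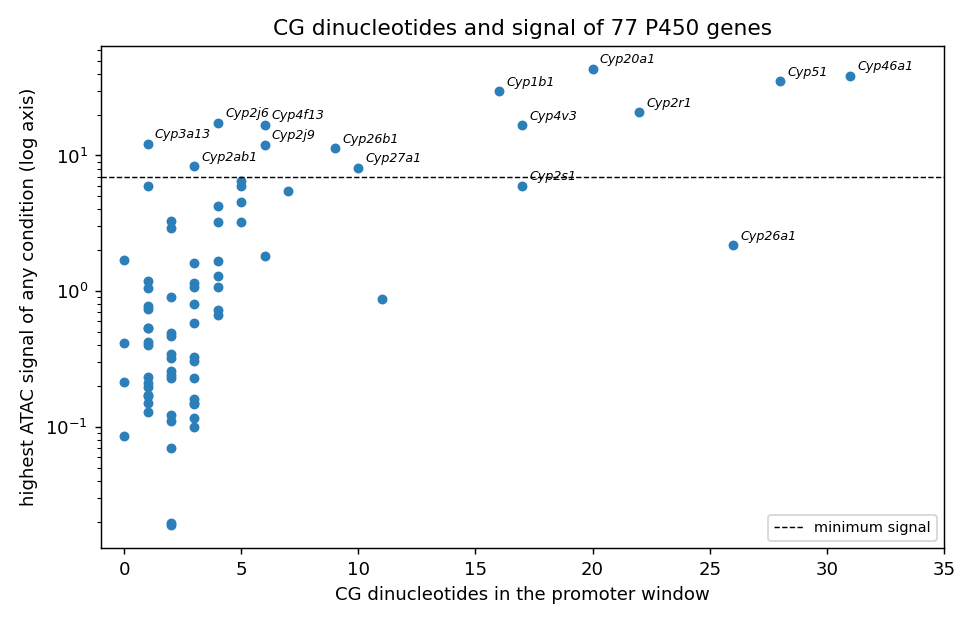
CG dinucleotides in the promoter window of 77 P450 genes (horizontal axis) and the highest ATAC signal the gene reached in any condition (vertical log axis), 1 point per gene. Members with 20 or more CG dinucleotides lie above the dashed minimum of 6.92 except Cyp26a1, and Cyp3a13, Cyp2ab1 and Cyp2j6 lie above it with 4 or fewer.

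Letters of a few factor motifs were searched in the same windows on both strands. The TATA letters TATAAA were in 34 of 87 member windows (39.1%) and in 13.6% of all 32851 windows. The Klf letters GGGNGTGG were in 17 member windows (19.5%) and 17.6% of all, and the Sox letters CATTGT in 14 (16.1%) and 12.6%. The Oct letters ATGCAAAT were in 0 member windows and 1.74% of all. The window of Cyp3a13 held 0 matches to the Klf, Sox and Oct letters and 2 to the AP-1 letters TGANTCA, which were in 7.81% of all windows. That window (137921570 to 137921869, - strand) lies inside the annotated gene. The bases before the 5′ end of the gene, at 137925610, were not searched. The window of Cyp2ab1 held 0 matches to the Klf, Sox, Oct and AP-1 letters. The core GCGTG bound by the aryl hydrocarbon receptor, which the Klf letters can overlap, was in 18 member windows (20.7%), those of Cyp1a1 and Cyp1b1 among them, and in 32.4% of all.

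The comparison of Klf4 with Flag asks what changed with a single factor. Cyp3a13 (ENSMUSG00000029727, chromosome 5, 137892933 to 137925610), an enzyme of gut and liver, had the largest difference of any member in the 10 comparisons. Its signal was 11.6 and 12.7 in Klf4 against 0.567 and 0.316 in Flag, a log2 difference of 4.44, or 21.7-fold on the scale with the pseudocount. Calls required a difference of 2-fold or more, with 1 of the compared levels at the minimum or above. In Klf4 1 member was called higher, where 0.742% of all genes were, and 0 members lower, where 0.141% were.

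Cyp3a13 divided the conditions in the same way throughout. Its columns read 8.14 and 8.45 in SKO, 9.27 and 12.1 in SKO-L80A, and 12.5 and 8.17 in SKO+shBrg1. With Gadd45a they were 10.8 and 7.83, and with vitamin C 5.95 and 6.13. Sox2 gave 0.330 and 0.400, the library labelled Oct4 0.243 and 0.570, and Oct4-L80A 0.262 and 0.648. All 6 conditions whose labels include Klf4 were thus at 5.95 or more, and the 4 others at 0.648 or less. In order of level, Klf4 was followed by SKO-L80A, SKO+shBrg1, SKO-L80A+Ga, SKO and SKO-L80A+Vc. The columns of SKO-L80A, SKO+shBrg1 and SKO-L80A+Ga overlapped each other. Those of Klf4 overlapped SKO-L80A and SKO+shBrg1, and those of SKO overlapped SKO+shBrg1 and SKO-L80A+Ga. Both columns of SKO-L80A+Vc were below every column of the other 5.

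The chromosomal neighbours of Cyp3a13 stayed below 1 in Klf4. Pilrb1 had 0.686 and 0.803 there, whereas Flag had 0.345 and 0.358, so its columns did not overlap. Its paralog Pilrb2, a receptor gene of myeloid cells 21175 bases from Cyp3a13, had 0.497 and 0.637 in Klf4, whereas Flag had 0.316 and 0.410. Gjc3, a connexin gene 25382 bases away on the other side, had 0.334 and 0.590 against 0.362 and 0.132. The other 8 CYP3 genes had log2 differences between -0.19 (Cyp3a11) and 0.44 (Cyp3a57), and none of them reached a signal of 1.

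Over the 10 conditions, Pearson's r of log2 signal with Cyp3a13 was highest, among 12866 other genes that reached the minimum somewhere, at Mustn1 (0.988), Plekhg6 (0.988), Mta1 (0.988), Nccrp1 (0.987) and Kcnn4 (0.986). The points are 1 library each and share the rise between the groups of conditions, so these values describe likeness only. Mta1 had 15.8 and 17.6 in Klf4, whereas Flag had 2.26 and 3.13. Among the members the highest r was at Cyp2ab1 (0.940).

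Cyp2ab1 (ENSMUSG00000022818, chromosome 16, 20308387 to 20325404) had 4.34 and 4.69 in Klf4, whereas Flag had 1.499 and 2.07, a log2 difference of 1.29 below the minimum signal. The combined conditions read 9.63 and 5.97 in SKO, 8.11 and 7.42 in SKO-L80A and 11.99 and 5.81 in SKO+shBrg1. Vitamin C gave 5.62 and 4.29, and Gadd45a 5.67 and 4.39. Without Klf4 it stayed near Flag, with 2.31 and 2.09 in Sox2, 1.49 and 1.82 in Oct4-L80A, and 1.59 and 1.57 where the label is Oct4. Parl, a mitochondrial protease gene that begins 5992 bases away, had 8.09 and 8.73 in Klf4, whereas Flag had 6.48 and 11.4, and Abcc5, a transporter gene 5899 bases away, had 15.3 and 17.9 against 19.7 and 33.6.

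Cyp2s1, a CYP2 enzyme of epithelia that acts on retinoids, had 3.58 and 4.21 in Klf4, 4.95 and 4.77 in SKO, and 1.60 and 2.42 in Flag. Over all conditions it lay between 2.77 and 6.44 with Klf4 and between 1.27 and 2.42 without it. With Cyp3a13 and Cyp2ab1 it made 3 members whose columns in the 6 conditions with Klf4 were all above those in the 4 without. This held for 1.37% of all genes, 301 in number, and was noticed after the values were seen. With quantile normalisation, or after each column was divided by its median, it held for 2 members, Cyp3a13 and Cyp2s1, and for 1.5% and 1.09% of all genes. Total signal over all genes was 168039 to 370390 in the columns with Klf4 and 112439 to 250920 in the others, so these ranges overlap.

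**Figure D3:**
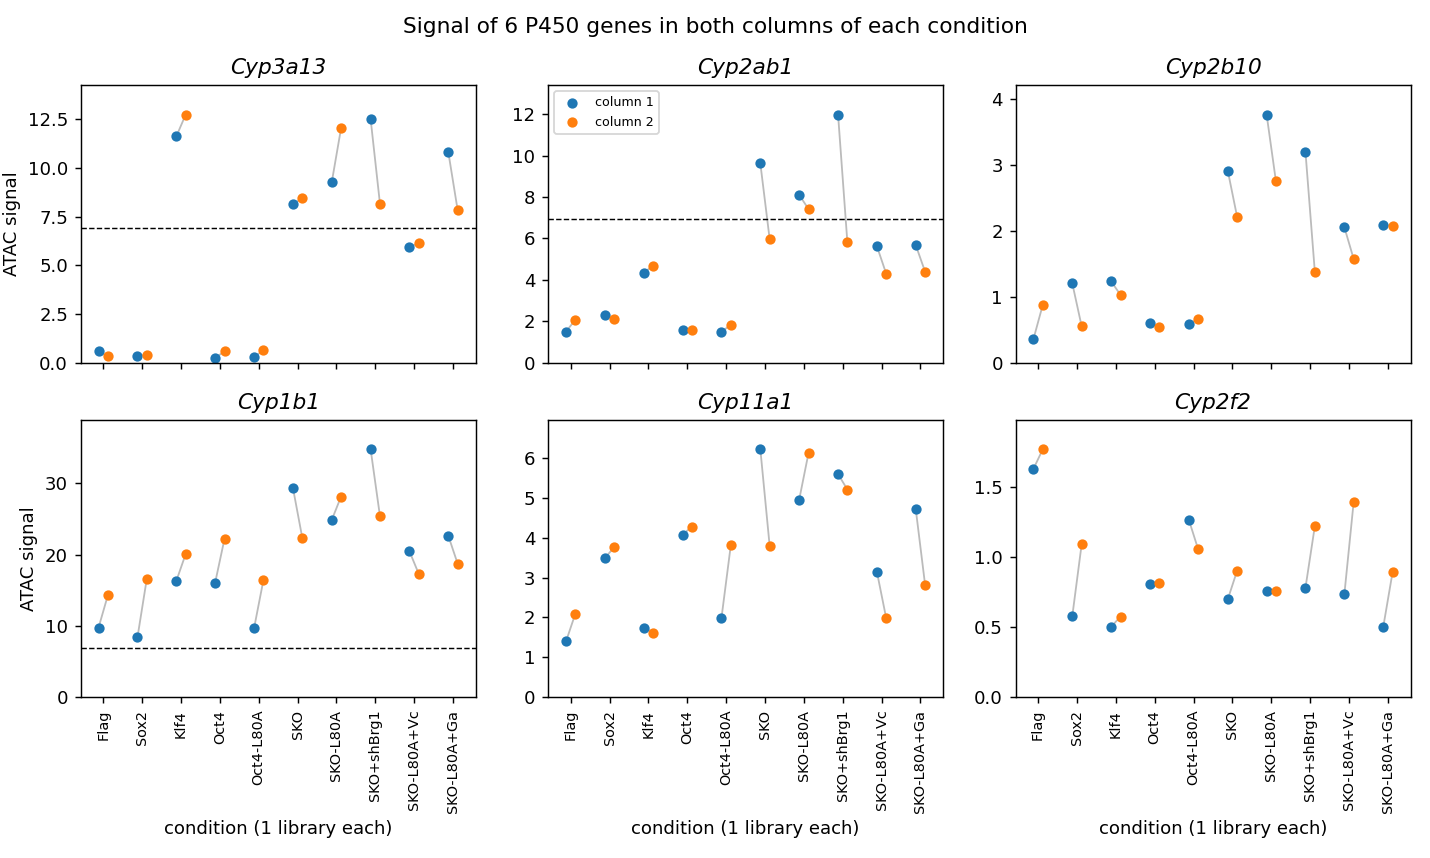
ATAC signal of 6 P450 genes in the 10 conditions (horizontal axis), with both columns of a condition joined by a line; the dashed line, where it is drawn, is the minimum of 6.92. Cyp3a13 and Cyp2ab1 are higher in the 6 conditions with Klf4 than in the 4 others, though the level of Cyp2ab1 reaches the minimum in only 3. Cyp11a1 is higher than Flag in Sox2 and the library labelled Oct4, and Cyp2f2 is highest in Flag.

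Other foreign-compound enzymes moved at levels below the minimum signal. Cyp2d26 had 4.13 and 7.22 in Klf4, whereas Flag had 1.79 and 2.29, a log2 difference of 1.37, and was past the size rule in column 2 alone. Cyp2e1, the ethanol-oxidising enzyme of liver, had 1.40 and 1.21 against 0.602 and 0.515. Cyp2b10, a phenobarbital-inducible enzyme, had 1.23 and 1.03 in Klf4, whereas Flag had 0.357 and 0.876. In SKO it had 2.91 and 2.21, a log2 difference of 1.92, while the other 4 Cyp2b genes were below 1 in every column. Without the minimum signal 5 members were past 2-fold in Klf4, 4 of them higher, where 2.90% of all genes were higher and 0.396% lower.

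The low signal of the closed members was itself higher in Klf4. The 51 members below 1 in every column had a median log2 difference of 0.30, and the 4480 genes of that kind in the table had 0.11. The same medians were 0.21 and 0.10 in Sox2, 0.26 and 0.15 in Oct4-L80A, and -0.03 and 0.00 where the label is Oct4. In SKO they were -0.10 and -0.01. Over all 100 members the median in Klf4 was 0.33, with 79 above 0, and over all genes 0.03, with 55.7% above 0. These signals are low, and part of the signal at that level may be background, whose part was not tested.

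SKO was compared with Flag for the effect of the 3 factors together. In SKO 5 members were called higher and 0 lower, where 6.18% and 0.0182% of all genes were. They were Cyp3a13 (log2 difference 3.90), Cyp2ab1 (2.02), Cyp2j9 (1.17), Cyp1b1 (1.11) and Cyp24a1 (1.10). The share of members was close to that of all genes, but only 17 members were at the minimum here and could be called. Of all genes 12442 were at the minimum, and 1358 were called higher. Genes can be at the minimum through SKO alone, as Cyp3a13, Cyp2ab1, Cyp2j9 and Cyp24a1 were. The share called among such genes therefore depends on the rise itself and is not compared. Without the minimum signal 12 members were past 2-fold, all higher, where 9.57% of all genes were higher. The median of all genes moved by 0.50. After it was subtracted, 2 members were called higher and 0 lower, where 1.31% and 0.0819% of all genes were. They were Cyp3a13 (3.39) and Cyp2ab1 (1.52). The members that reached the minimum had a median of 0.85, and all genes that did so 0.60. Here too the minimum could be reached through SKO alone. The members below it had 0.03 and all such genes 0.09.

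Cyp2j9, an arachidonic acid epoxygenase of brain, had 13.0 and 10.6 in SKO, whereas Flag had 4.10 and 6.46. The single factors gave 3.63 and 4.21 (Klf4), 2.43 and 6.21 (Sox2) and 5.07 and 5.50 (the library labelled Oct4), each overlapping the range of Flag. Its neighbour Cyp2j6, 4119 bases away, had 18.2 and 15.6 in SKO, whereas Flag had 5.54 and 13.3, just under 2-fold. Cyp2j5 on the other side had 0.141 and 0.123, whereas Flag had 0.444 and 0.128. Cyp1b1 had 29.4 and 22.4 in SKO against 9.77 and 14.3, with 16.3 and 20.1 in Klf4. The library labelled Oct4 had 16.1 and 22.2. Cyp24a1, the vitamin D-degrading hydroxylase, had 8.80 and 6.14 against 2.55 and 4.41. In the RefSeq annotation it spans 170482957 to 170497145 and overlaps Pfdn4, which spans 170496428 to 170519070. Signal in the shared stretch cannot be assigned to one of the genes. With the shift of all genes subtracted these 3 were under 2-fold, at 0.66, 0.60 and 0.60. Column 2 alone also left them under 2-fold, with log2 differences of 0.71, 0.64 and 0.47, and called 1 member, Cyp3a13, and 1.23% of all genes, while column 1 alone called 15 members and 40.3% of all genes.

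Of the enzymes of sterol metabolism, Cyp51 had 35.03 and 27.1 in SKO, whereas Flag had 12.9 and 22.5, a log2 difference of 0.85, and Cyp46a1 had 41.6 and 27.7 against 22.6 and 26.8, a difference of 0.46. Neither was called. Cyp11a1, which starts steroid hormone synthesis by cleaving the cholesterol side chain, had a difference of more than 2-fold at a low level. It had 3.49 and 3.76 in Sox2, and 4.08 and 4.28 where the label is Oct4, against 1.40 and 2.09 in Flag and 1.75 and 1.62 in Klf4. The log2 differences were 1.02 and 1.221, and both were below the minimum signal. In SKO it had 6.22 and 3.79, and in SKO-L80A 4.96 and 6.13. Cyp17a1, the next enzyme of that pathway, had 2.17 and 5.79 in Sox2, whereas Flag had 3.43 and 7.03, and Cyp19a1, the aromatase, 1.57 and 1.997 against 0.963 and 1.41.

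No member was called in Sox2, the library labelled Oct4 or Oct4-L80A against Flag. Of all genes, 0.0592% were called higher and 0.127% lower in Sox2. The library labelled Oct4 had 0.355% and 0.0228%, and Oct4-L80A 0.00455% and 0.0364%. The members that reached the minimum had differences between -0.55 and 0.00 in Sox2. The bounds were -0.04 and 0.67 for the library labelled Oct4, and -0.73 and 0.09 for Oct4-L80A. With 11 or 12 members at the minimum in each, few could be called.

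**Figure D4:**
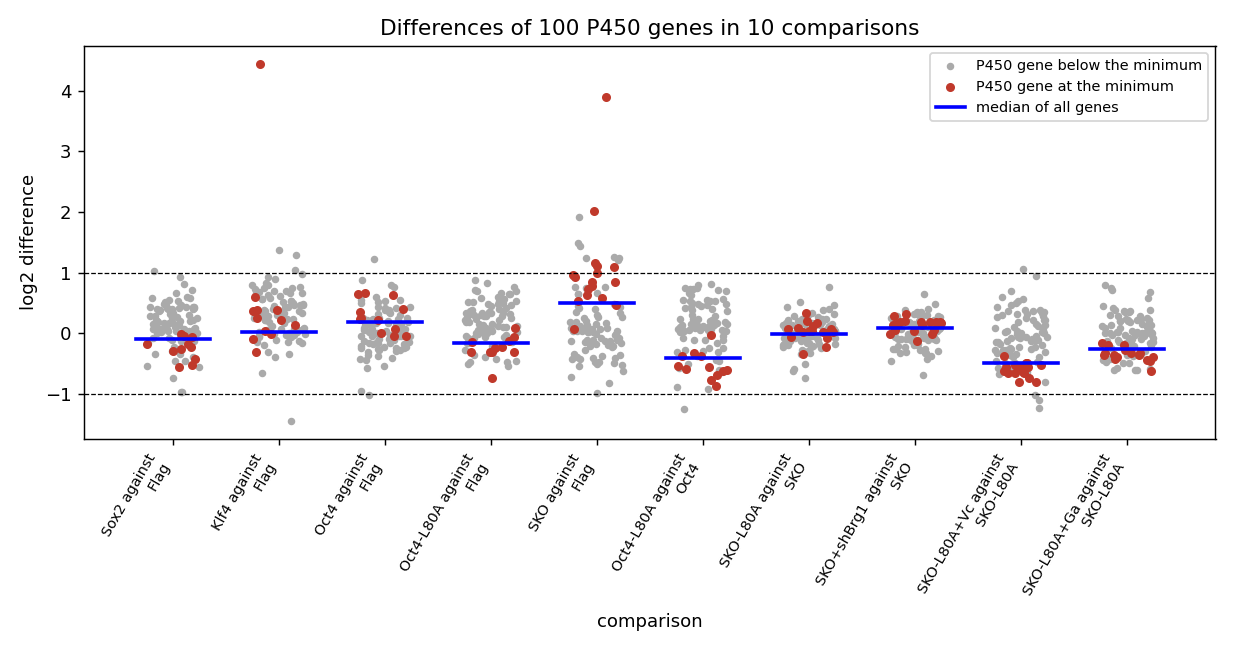
Log2 difference of each of the 100 P450 genes in the 10 comparisons (horizontal axis), grey below and red at or above the minimum signal, with a blue bar at the median of all genes and dashed lines at 2-fold. Cyp3a13 stands at 4.44 in Klf4 and 3.90 in SKO against Flag; the red points of most comparisons lie around the blue bar.

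Libraries with the L80A mutation were examined in 2 settings, and in both the signal over the Sox2 gene differed too. It was 2.37 and 5.47 in Oct4-L80A, but 62.9 and 55.2 under the Oct4 label. In SKO-L80A it was 38.5 and 51.8, and in SKO 72.2 and 59.8. The part of these Sox2 differences in the values below was not tested. Against the library labelled Oct4, 0 members were called in Oct4-L80A, where 0% of all genes were higher and 0.769% lower. The members at the minimum were between -0.87 and -0.02, around a median of all genes of -0.40. Cyp4b1, a fatty acid and foreign-compound hydroxylase, had 1.91 and 3.13 in Oct4-L80A against 6.11 and 5.86, a log2 difference of -1.24 below the minimum signal. Column 1 alone called 5 members lower (Cyp2u1, Cyp39a1, Cyp4f17, Cyp4v3 and Cyp51) and 19.3% of all genes. In SKO-L80A against SKO 0 members were called, where 0.00911% of all genes were higher and 0% lower, and the members at the minimum lay between -0.34 and 0.35. Cyp3a13 had a level in SKO-L80A above that in SKO, and both its columns (9.27 and 12.1) exceeded those of SKO (8.14 and 8.45).

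The hairpin against Brg1 left the members near SKO. In SKO+shBrg1 0 members were called, where 0.00455% of all genes were higher and 0% lower, and the 18 members at the minimum lay between -0.13 and 0.33. Cyp3a13 had 12.5 and 8.17 against 8.14 and 8.45, and Cyp2ab1 11.99 and 5.81 against 9.63 and 5.97, so the columns overlapped.

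Vitamin C went with lower signal over open members, as over open genes in general. In SKO-L80A+Vc against SKO-L80A 0 members were called, where 0% of all genes were higher and 0.46% lower. All 16 members at the minimum were below 0, between -0.79 and -0.36, around a median of all genes of -0.49. Their median was -0.59, and that of all genes at the minimum -0.56. A gene can be at the minimum through SKO-L80A alone, as Cyp3a13, Cyp2ab1, Cyp24a1, Cyp2j9 and Cyp26b1 were, which favours a drop. Cyp3a13 had 5.95 and 6.13 against 9.27 and 12.1, and Cyp51 had 22.3 and 20.5 against 28.1 and 35.4. Below the minimum, Cyp4b1 had 2.09 and 1.91 against 4.69 and 5.05, and Cyp11a1 had 3.14 and 1.98 against 4.96 and 6.13. The 51 closed members had a median log2 difference of 0.02, and all closed genes -0.01. Cyp2d11, a CYP2D paralog among them, had 0.219 and 0.639 against 0.124 and 0.102. With Gadd45a in place of vitamin C, 0 members were called, where 0% of all genes were called in either direction. The 16 members at the minimum lay between -0.62 and -0.15, around a median of all genes of -0.25. Their median was -0.36, and that of all genes at the minimum -0.31.

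Partners and regulators of P450 enzymes were followed as a list of 35 genes, all in the table. In SKO 4 of them were called higher and 0 lower, where 6.18% and 0.0182% of all genes were. They were Ahr, the receptor for dioxin-like compounds (8.51 to 12.7 against 3.78 to 5.63 in Flag), its repressor Ahrr (11.7 to 15.7 against 4.40 to 7.53), the retinoid X receptor gene Rxrg, and the fatty acid receptor Ppara. With the shift of all genes subtracted 0 of them were called, and the list's median of 0.51 lay beside 0.50 for all genes. In Klf4 0 were called, where 0.742% of all genes were higher and 0.141% lower. Ahr was the 1 gene of the list called higher where the label is Oct4 (8.79 and 10.7), beside 0.355% of all genes. Rxrg was the 1 called lower with vitamin C (4.02 and 5.31 against 9.00 and 10.3 in SKO-L80A), beside 0.46% of all genes. In the remaining 6 comparisons 0 were called. Nr1i2, the pregnane X receptor that induces CYP3A genes, was picked out after its values were seen. It had 5.60 and 7.27 in Klf4, whereas Flag had 2.17 and 4.17, below the minimum signal, while in SKO it had 4.26 and 2.99. Vdr, another receptor gene of the list, went the other way in Klf4. It had 2.33 and 3.62 against 5.50 and 7.28, a log2 difference of -1.09, also below the minimum signal. The list's median in Klf4 was -0.07, beside 0.03 for all genes. Por, the reductase that passes electrons to microsomal P450 enzymes, was open throughout, with 25.7 and 35.5 in Flag.

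Markers of other cell types were set beside these results. Of 7 intestinal epithelium genes 1, Isx, was called higher in Klf4 (21.0 and 26.9 against 3.02 and 4.01), where 0.742% of all genes were. The summed signal of that list was 29.7 and 37.6 in Klf4 against 10.3 and 12.8 in Flag, a rise that Isx made up for the most part. Among the others, the log2 difference was 0.77 at Lgals4, 0.50 at Cdx1, 0.14 at Muc2, -0.04 at Vil1 and -0.78 at Fabp2, and Cdx2 had 1.70 and 2.202 against 1.66 and 2.26. Of 5 general epithelium genes 0 were called in Klf4, but the list's median was 1.02, beside 0.03 for all genes, with 1.19 at Cldn3, 1.02 at Cdh1 and 1.02 at Krt8. Its summed signal was 13.5 and 19.7 in Klf4, 28.1 and 23.5 in SKO, and 7.12 and 10.3 in Flag. In SKO Cldn3 and Krt8 were called higher, where 6.18% of all genes were.

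Of 8 hepatocyte genes 0 were called in Klf4, where 0.742% of all genes were higher and 0.141% lower, and the list's median was -0.02. Its log2 differences ran from -0.45 at Apoa2 to 0.58 at Alb, which had 0.464 and 0.498 against 0.321 and 0.233. The 10 fibroblast genes had a summed signal of 95.0 and 118 in Klf4 against 106 and 156 in Flag, with 6 at the minimum in both and a median log2 difference of -0.13. None of these markers was at 0, and their part in the Cyp3a13 signal was not tested.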

How the data were processed

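The authors' deposited table gives a signal for 21965 genes in 20 columns, 2 for each of 10 libraries. The deposited signal is named a density by the submitters. Its window, scaling and column relation were not given in the sources used here. Build mm10 comes from the submitters' processing notes, which list, without roles, MACS2 2.1.0, Bowtie2 2.2.5, Trimmomatic 0.35, Picard, bedtools 2.25.0, SAMtools 1.3.1, cutadapt 1.13 and deepTools. Columns were counted as 1 replicate per condition.

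Differences were means over both columns of log2(signal + 0.138), the pseudocount being the 10th percentile of values above 0. Calls needed 2-fold and a level of 6.92. Depth is unknown, since no counts are given. The named genes were members past the size rule, the 5 highest in Flag, and a group fixed by role, of which not all are printed. Others were named after their values were seen. Members and lists were chosen with earlier results of these data known. Genes were matched by symbol to RefSeq (GRCm38.p6, the assembly of mm10), and promoter windows came from RefSeq. Python 3.11.15, numpy 2.4.6 and pandas 2.3.3 were used, and the calling was tested on simulated data. Unless a minimum is named as left out, counts use it.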

Additional observations from a re-analysis of the deposited data

How the results depend on the processing

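With 1 library per condition nothing here measures replicate error, and the unknown depth limits low values most: 82 of the 100 members never reached the minimum signal. Pseudocounts 4 times larger or smaller changed the number of called members in 1 of 10 comparisons, from 5 to 6 in SKO against Flag. Without the minimum signal the number called against Flag was 1 in Sox2 (1.43% of all genes), 5 in Klf4 (3.30%), 2 in the library labelled Oct4 (1.72%) and 12 in SKO (9.97%). It was 1 for Oct4-L80A set against the Oct4-labelled library (2.02%) and 4 in SKO-L80A+Vc against SKO-L80A (1.75%). In SKO against Flag it was 2 with the all-gene shift subtracted (1.39%) and 0 with quantile normalisation (0.742%), where Cyp3a13 kept a log2 difference of 3.41 but fell below the minimum signal. Column 1 alone gave 15 in SKO (40.3%) and 1, Cyp39a1, in the library labelled Oct4 (1.54%), both against Flag, and 5 for Oct4-L80A set against the Oct4-labelled library (19.3%). Column 2 alone gave 1 in SKO (1.23%) and 2 in Klf4 (0.933%) against Flag, and 1, Cyp2j6, in SKO-L80A+Vc against SKO-L80A (4.01%). The members whose columns did not overlap between conditions with and without Klf4 numbered 3 with both columns, 18 in column 1 alone (13.0% of all genes, in either direction) and 6 in column 2 alone (3.25%); these alternatives were chosen after seeing the data. Cyp3a13 lay between 3.69 and 4.73 over pseudocounts in Klf4. No paired analysis was possible because each condition has 1 library and the results come from no test; what the column numbers 1 and 2 stand for was not given, and differences were averaged over columns of the same number.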

Other observations

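Cyp2f2 and Cyp8b1, which were not called in any comparison, were picked out after their values were seen. Cyp2f2, a lung enzyme that activates naphthalene, had 1.63 and 1.77 in Flag, and all columns of the 9 other conditions were lower, between 0.500 and 1.40. In Klf4 it had 0.503 and 0.576, a log2 difference of -1.44 that stayed below the minimum signal, and 0.0592% of all genes had a lower difference there. Cyp8b1, the sterol 12-alpha-hydroxylase of bile acid synthesis, had 5.71 and 7.47 in Klf4, 3.39 and 6.16 in Flag and 2.87 and 3.005 in SKO. Gene length went with signal in opposite directions within the group and over all genes. Spearman's rho of gene length with the Flag level was -0.25 across the 100 members and 0.34 across 20788 genes, members included. These values are a description across genes that are not independent.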
